A study of Homo sapiens with 6 samples.

Results

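The genes described here are the LGR receptors and the feedback and effector genes of the Wnt pathway in T24 cells given the plant protein MAP30. Members were the probe sets annotated to exactly 1 gene, that gene being LGR4, LGR5, LGR6, RNF43, ZNRF3, AXIN2, CTNNB1, LEF1, TCF7 or TCF7L2. This gave 39 of the 49395 probe sets of the deposited table, for 9 of the 10 genes. TCF7 had no such probe set and was not analysed here. T24 is an established line of human bladder carcinoma, and MAP30 comes from bitter melon and inactivates ribosomes. The series holds 3 arrays of T24 cells exposed to 10 µg/ml MAP30 for 48 hours, and 3 arrays of T24 cells labelled normal, called control here. The sources used here do not say what the control cells received. All arrays come from 1 cell line. Separate cultures are stated nowhere, so the p-values rest on a spread between arrays that may be technical only.

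In the Wnt pathway, secreted Wnt proteins bind Frizzled receptors and the co-receptors LRP5 and LRP6. This stops a complex of AXIN, APC and kinases from destroying beta-catenin, the product of CTNNB1, which then joins TCF and LEF proteins on DNA and turns on target genes. RNF43 and ZNRF3 are membrane ubiquitin ligases that remove Frizzled receptors, and R-spondins bound to LGR4, LGR5 or LGR6 take these ligases away and so raise the signal. AXIN2, RNF43, ZNRF3, LGR5, LEF1 and TCF7 are themselves known as Wnt target genes in many tissues, which makes several of them feedback regulators.

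The deposited values are on a log scale, taken here as log2, and each probe set is centred on its median over the 6 arrays. A value therefore says how an array stands relative to the others for that probe set, not how much RNA is present, so neither the levels of 2 genes nor the presence of urothelial markers can be judged. The number of arrays limits the precision. Over all genes the SD of the difference between arrays was 0.105 to 0.121 within groups and 0.617 to 0.621 between groups, and MAP30 differed from control in a large share of the transcriptome. By limma with Benjamini-Hochberg adjustment over all 18132 genes, 57.5% passed an adjusted p of 0.05, with 26.9% higher and 30.6% lower, and their median log2 fold change was -0.02. That median was -0.23 when arrays were centred on spiked hybridization controls and 0.14 when they were centred on spiked poly-A controls, so the value under these scalings is given where it changes a call. The split of calls over all genes was 4878 higher and 5553 lower as deposited, 3087 and 11558 with hybridization-control centring, and 8906 and 3754 with poly-A-control centring. The log2 ratio of 3' to 5' ACTB control probe sets, a sign of RNA quality, was higher with MAP30 by 0.158 (SD 0.0068 with MAP30 and 0.021 in control, n = 3 each; two-sided exact permutation p = 0.1, the smallest possible). The same ratio for GAPDH was higher by 0.043 (SD 0.0084 with MAP30 and 0.013 in control, n = 3 each; two-sided exact permutation p = 0.1), and their part in the results was not tested. Among marker lists of other cell types, 4 of 8 leukocyte genes were higher and 2 lower, 1 of 7 fibroblast genes was higher, and 3 of 6 endothelial genes were higher; of 13 urothelial genes 2 were higher and 2 lower. All 6 endothelial genes were higher with poly-A-control centring, while 1 was higher and 3 lower with hybridization-control centring. The other lists moved too. With hybridization-control centring 3 leukocyte genes were higher and 4 lower, 0 fibroblast genes higher and 6 lower, and 2 urothelial genes higher and 9 lower. With poly-A-control centring these counts were 6 and 1, 6 and 0, and 5 and 2. Centred values give no level for these markers, and their part in the results was not tested.

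LEF1 was the member that changed most. It was 1.67-fold lower with MAP30, and LGR4 and CTNNB1 were lower by smaller amounts. LGR6 and TCF7L2 were slightly higher, and LGR5, RNF43, ZNRF3 and AXIN2 did not pass. The 5 of 9 genes that passed are 55.6% of the members, near the 57.5% of all genes. At the level of probe sets, 17 of 39 passed, or 43.6%, against 56.3% of all 49293 probe sets tested. Of the 39, 4 were higher and 13 lower, where 26.2% of all probe sets tested were higher and 30.1% lower. The arrays of the 2 groups did not overlap in 6 of the 9 genes and in 22 of the 39 probe sets, against 62.6% of all genes and 61.9% of all probe sets. The median log2 fold change was -7.5e-05 over the member genes and -0.06 over their probe sets, beside -0.02 over all genes and over all probe sets.

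**Figure D1:**
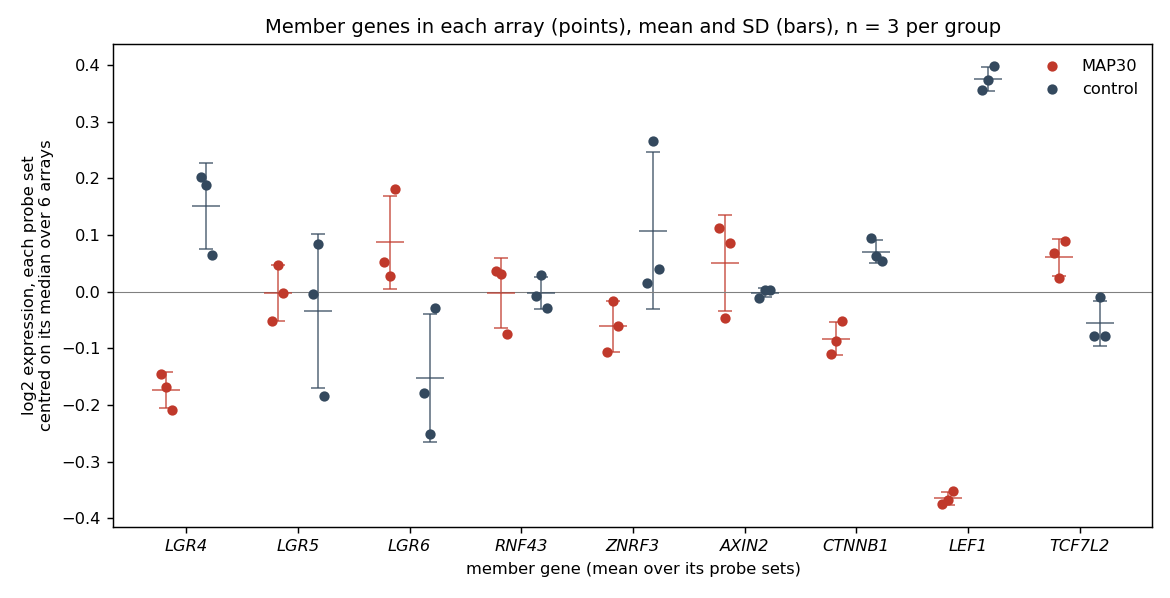
Each point is 1 array, with MAP30 in red on the left and control in dark blue on the right of each gene; the vertical axis is log2 expression after centring each probe set on its median over the 6 arrays, averaged over the probe sets of the gene. Bars give the mean and SD of 3 arrays. The MAP30 arrays of LEF1 lie between -0.37 and -0.35 and its control arrays between 0.36 and 0.40, while the groups overlap for LGR5, RNF43 and AXIN2.

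Among the LGR receptors, LGR4 was lower, LGR6 was higher and LGR5 did not pass. LGR4, the receptor of this family found in the widest range of tissues, stood at -0.14, -0.17 and -0.21 in the MAP30 arrays, against 0.20, 0.19 and 0.06 in the control arrays. All MAP30 arrays lay below all control arrays, and the fold change of -0.33 ± 0.05 (SE, log2, n = 3 per group) had an adjusted p of 0.000512 by limma. It was lower under each scaling tried, from -0.53 with hybridization-control to -0.16 with poly-A-control centring.

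The fall of LGR4 came from 1 of its 2 probe sets. Probe set 11743626_s_at had -0.49, -0.37 and -0.26 with MAP30, against 0.39, 0.40 and 0.26 in control, a 1.64-fold lower signal (log2 fold change -0.72 ± 0.07 SE, limma adjusted p = 6.49e-05). It passed without each of the 6 arrays in turn, at -0.77 to -0.66. Probe set 11743625_a_at had 0.20, 0.03 and -0.16 with MAP30, against 0.02, -0.02 and -0.13 in control, and the groups overlapped (0.06 ± 0.09 SE, limma adjusted p = 0.594, 95% interval -0.15 to 0.28). The difference between the probe sets, _s_at minus _a_at, ran from -0.68 to -0.09 in the MAP30 arrays and from 0.37 to 0.42 in the control arrays (two-sided exact permutation p = 0.1, the smallest possible, not adjusted for the 3 such differences taken). The gap between the groups in the _s_at values was wider than the whole range of the _a_at values. That p was therefore fixed in advance and adds no support. In Affymetrix naming, _a_at marks a probe set that matches several transcripts of 1 gene, and _s_at and _x_at mark sets whose probes can also match other sequences. The call on LGR4 rested on the _s_at probe set.

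LGR5, a marker of stem cells in the intestine, had no call in either of its 2 probe sets. Its arrays were -0.05, 0.05 and -0.0024 with MAP30 and -0.0042, 0.08 and -0.18 in control, so the groups overlapped. The log2 fold change was 0.03 with a 95% interval of -0.13 to 0.20, which is 0.913-fold to 1.14-fold (limma adjusted p = 0.73). This gene took the sign of the scaling: it passed as lower at -0.18 with hybridization-control and as higher at 0.20 with poly-A-control centring.

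LGR6, known for marking stem cells in the skin, was measured by 1 probe set. Its values were 0.05, 0.03 and 0.18 with MAP30, against -0.18, -0.25 and -0.03 in control. The groups did not overlap, and the gene was 1.18-fold higher (0.24 ± 0.07 SE, limma adjusted p = 0.0173), but with hybridization-control centring it stood at 0.03 and did not pass. Its call was also lost when control replicate 1 (0.23), control replicate 2 (0.19) or MAP30 replicate 3 (0.19) was left out. LGR4 minus LGR6 was -0.39 to -0.20 in the MAP30 arrays and 0.09 to 0.44 in the control arrays. This difference of -0.57 cannot be moved by centring of whole arrays (two-sided exact permutation p = 0.1, the smallest possible). Both genes already separated the groups, in opposite directions, so that p was fixed in advance and adds no support.

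The feedback ligases gave no call on the deposited scale. RNF43 had 0.04, 0.03 and -0.07 with MAP30, against -0.01, 0.03 and -0.03 in control, and the 2 groups overlapped in each of its 6 probe sets. Its fold change was 1.00 with a 95% interval of 0.933 to 1.07 (limma adjusted p = 0.999), and the probe sets ran from -0.04 to 0.09 on the log2 scale. As with LGR5, it passed as lower at -0.21 with hybridization-control and as higher at 0.16 with poly-A-control centring.

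ZNRF3, the paralogue of RNF43, was measured by 1 probe set. It had -0.11, -0.02 and -0.06 with MAP30, against 0.02, 0.27 and 0.04 in control. The groups did not overlap, although control replicate 2 stood far above the other control arrays. The log2 fold change of -0.17 ± 0.07 (SE) did not pass (limma adjusted p = 0.0737). It was -0.09 without control replicate 2 and did not pass, passed at -0.21 without control replicate 1, and was -0.38, past the threshold, with hybridization-control centring but -0.0052, not passed, with poly-A-control centring.

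AXIN2 encodes a scaffold of the destruction complex and is a widely used readout of Wnt signalling. Its arrays were 0.11, -0.05 and 0.09 with MAP30, against -0.01, 0.0035 and 0.0026 in control. The groups overlapped, and the log2 fold change was 0.05 ± 0.05 (SE, limma adjusted p = 0.392). Its 95% interval on the deposited scale was 0.96-fold to 1.12-fold. This interval is for the mean over 3 probe sets, whose own intervals were wider, as -0.08 to 0.41 (log2) for 11718452_at. None of its 3 probe sets passed, with log2 fold changes of -0.05, 0.04 and 0.17, and probe set 11718452_at, with 0.37 in MAP30 replicate 3, varied most. That probe set passed at 0.27 when MAP30 replicate 2 was left out. AXIN2 passed as lower at -0.16 with hybridization-control and as higher at 0.22 with poly-A-control centring.

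**Figure D2:**
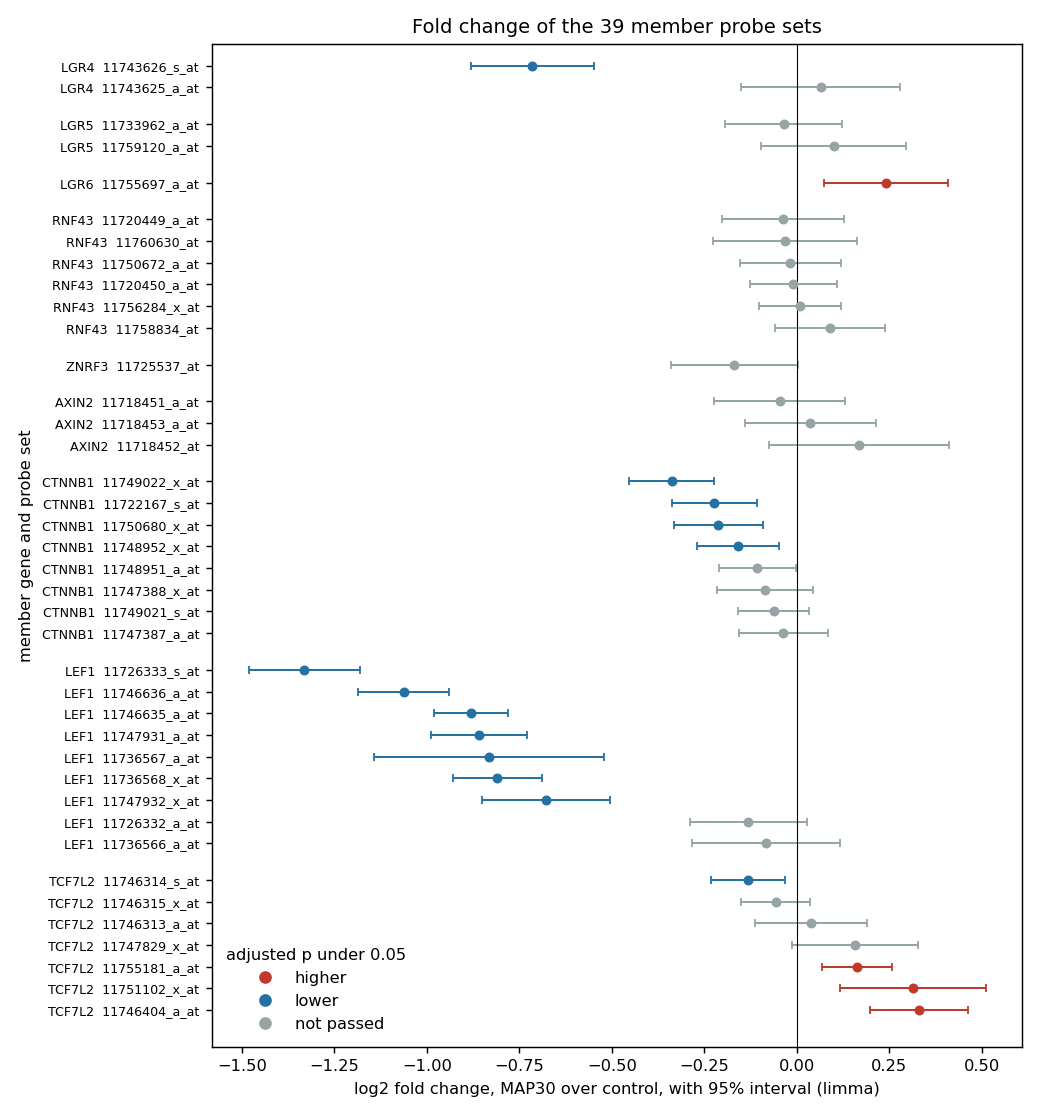
Log2 fold change of MAP30 over control (horizontal axis) for each of the 39 probe sets, grouped by gene down the page, with 95% intervals from limma; colours give calls at an adjusted p of 0.05 on the deposited scale. For LEF1 7 of 9 probe sets are lower, for CTNNB1 4 of 8 and for LGR4 1 of 2, while TCF7L2 has 3 higher and 1 lower. With hybridization-control centring 0 member probe sets are higher and 28 lower; with poly-A-control centring 11 are higher and 9 lower, of LEF1, LGR4 and CTNNB1.

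CTNNB1 encodes beta-catenin, which both carries the Wnt signal to the nucleus and ties cadherins to the cytoskeleton. Its arrays were -0.11, -0.09 and -0.05 with MAP30, against 0.09, 0.06 and 0.05 in control. The groups were separate, and the gene was 1.11-fold lower (log2 fold change -0.15 ± 0.03 SE, limma adjusted p = 0.00536), a fall that was larger with hybridization-control centring (-0.36) and did not pass with poly-A-control centring (0.01). On the deposited scale all 8 probe sets had a fold change below 0, from -0.34 to -0.04. With hybridization-control centring all 8 passed as lower. With poly-A-control centring they ran from -0.18 to 0.13, and 1 passed, as lower. The 4 that passed on the deposited scale were of classes _s_at or _x_at. With _at or _a_at probe sets alone the gene stood at -0.07 and did not pass. Of the 4, probe set 11748952_x_at lost its call without MAP30 replicate 1, MAP30 replicate 2 or control replicate 1, and the others passed without any 1 array.

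LEF1 and TCF7L2 encode DNA-binding partners of beta-catenin. LEF1 stood at -0.37, -0.37 and -0.35 with MAP30, against 0.36, 0.37 and 0.40 in control. The gap between the groups was many times the spread within them, and the log2 fold change was -0.74 ± 0.03 (SE, limma adjusted p = 5.66e-07, 95% interval -0.82 to -0.67). It remained lower and past the threshold under every alternative run, from -0.95 with hybridization-control to -0.58 with poly-A-control centring and from -0.75 to -0.73 without any 1 array. In RNA from whole cultures, fewer cells with the transcript and less of it per cell cannot be told apart.

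On the deposited scale the 9 probe sets of LEF1 fell into a group of 7 that passed and a pair that did not. With hybridization-control centring all 9 passed as lower, at -1.54 to -0.29, and with poly-A-control centring 7 did. Probe set 11726333_s_at changed most, with -0.70, -0.70 and -0.60 with MAP30 against 0.61, 0.79 and 0.60 in control, or 2.52-fold lower (log2 fold change -1.33 ± 0.06 SE, limma adjusted p = 1.24e-06). Next was 11746636_a_at, with -0.47, -0.57 and -0.62 with MAP30 against 0.53, 0.54 and 0.47 in control, or 2.09-fold lower. The other 5 that passed ran from -0.88 to -0.68, and all 7 passed without each of the 6 arrays in turn. Probe sets 11726332_a_at (-0.13, limma adjusted p = 0.142, 95% interval -0.29 to 0.03) and 11736566_a_at (-0.08, limma adjusted p = 0.45, 95% interval -0.28 to 0.12) had overlapping groups, and 11726332_a_at passed when control replicate 1 was left out. The value of the gene depended on the summary. The mean over the 9 probe sets gave -0.74, their median -0.83, and the _at or _a_at probe sets alone -0.64, each past the threshold.

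TCF7L2, the TCF factor best known from the intestine and from diabetes genetics, was mixed. Its arrays were 0.07, 0.02 and 0.09 with MAP30, against -0.08, -0.01 and -0.08 in control. The groups did not overlap and the gene was 1.08-fold higher (0.12 ± 0.04 SE, limma adjusted p = 0.0308), but it stood at -0.09 without passing with hybridization-control centring. The call was also lost when control replicate 1 (0.10), control replicate 3 (0.10), MAP30 replicate 1 (0.11) or MAP30 replicate 3 (0.10) was left out, and it was kept without the other two.

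On the deposited scale its 7 probe sets pointed both ways, 3 higher and 1 lower, while none was higher and 2 were lower with hybridization-control centring and 5 were higher and none lower with poly-A-control centring. Probe set 11746404_a_at had 0.21, 0.09 and 0.22 with MAP30, against -0.22, -0.09 and -0.17 in control, and was 1.26-fold higher (limma adjusted p = 0.00144). Probe sets 11751102_x_at (0.31) and 11755181_a_at (0.16) were also higher, and these 3 passed without any 1 array. Against them, 11746314_s_at had -0.07, -0.03 and -0.06 with MAP30 and 0.03, 0.10 and 0.11 in control (log2 fold change -0.13, limma adjusted p = 0.0315), a call kept when control replicate 1 was left out and lost without any other array and with quantile normalization. LEF1 minus TCF7L2 was -0.44 to -0.39 in the MAP30 arrays and 0.38 to 0.48 in the control arrays. The 2 factors thus differed in response by -0.86 (two-sided exact permutation p = 0.1, the smallest possible). Each gene already separated the groups, in opposite directions, so this p was fixed in advance and adds no support.

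**Figure D3:**
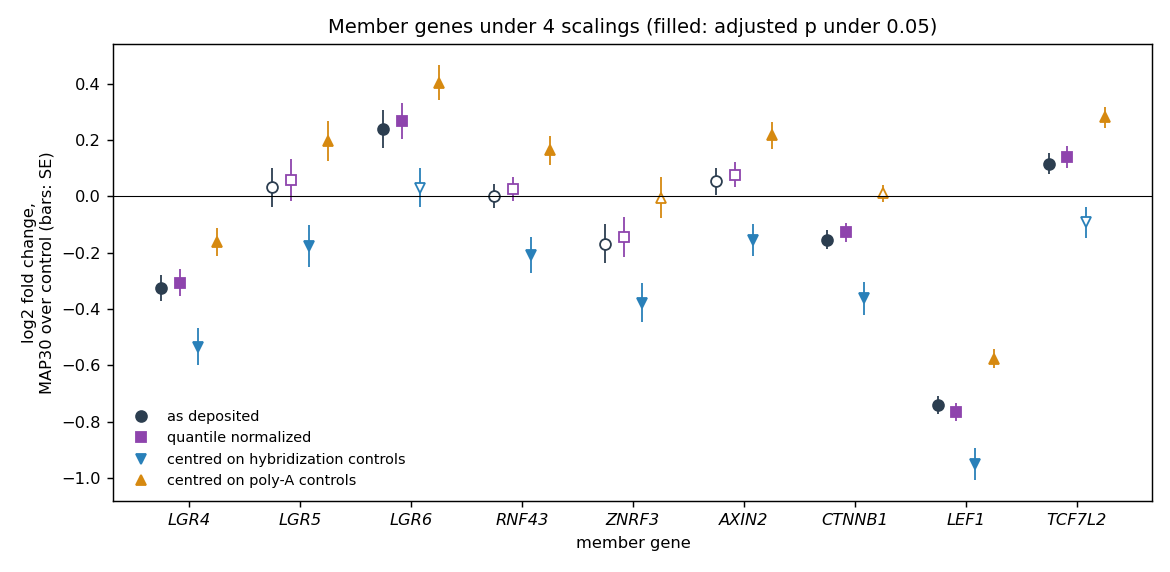
Log2 fold change of MAP30 over control with its SE (vertical axis) for each member gene under 4 scalings, filled where the limma adjusted p was under 0.05. LEF1 (-0.95 to -0.58) and LGR4 (-0.53 to -0.16) are lower and filled under all 4; each of the other 7 is filled under some scalings and open under others.

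The promoters of LEF1, LGR4 and TCF7L2 are shown because these genes hold the largest changes and the divided response of the DNA-binding factors. RefSeq promoter windows (GRCh38.p14) were found for 7 of the 10 genes, 13 windows in all, and the 250 bases before each start were searched on both strands for the TCF/LEF core in 4 spellings (CTTTGAA or CTTTGAT or CTTTGTA or CTTTGTT), which cannot occupy the same position on 1 strand. The start listed for LEF1 lies inside the gene, and so does that of the TCF7L2 window shown. Capitals mark a match:
LEF1, chr4:108166302-108166551, minus strand: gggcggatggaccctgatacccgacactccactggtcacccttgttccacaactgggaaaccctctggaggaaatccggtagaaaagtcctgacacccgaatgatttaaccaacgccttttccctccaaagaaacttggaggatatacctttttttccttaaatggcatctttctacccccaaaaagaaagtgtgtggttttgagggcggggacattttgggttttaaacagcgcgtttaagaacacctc
LGR4, chr11:27472791-27473040, minus strand: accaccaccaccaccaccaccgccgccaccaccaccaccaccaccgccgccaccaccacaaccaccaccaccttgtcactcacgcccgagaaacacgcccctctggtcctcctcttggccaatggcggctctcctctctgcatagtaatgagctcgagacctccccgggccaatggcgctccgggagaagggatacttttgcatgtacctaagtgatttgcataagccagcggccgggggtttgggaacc
TCF7L2, chr10:113126383-113126632, plus strand: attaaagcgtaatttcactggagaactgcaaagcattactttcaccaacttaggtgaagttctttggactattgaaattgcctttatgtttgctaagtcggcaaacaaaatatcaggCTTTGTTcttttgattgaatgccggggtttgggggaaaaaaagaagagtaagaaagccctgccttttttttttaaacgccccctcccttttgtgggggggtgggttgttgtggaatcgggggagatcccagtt
The TCF7L2 window shown held CTTTGTT, starting 133 bases before the start, and was chosen for that match; the other two TCF7L2 windows, one of them at the upstream end of the gene, held none of the spellings. Of the TCF7 windows, 1 held the same core on the other strand 50 bases before its start and the other held none. No window of LEF1, LGR4, LGR6, RNF43 or CTNNB1 held any of the spellings. A match was present in 2 of the 13 windows, or 15.4%, and in 12.0% of all 35116 windows, and it describes letters in a window, not binding.

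By root mean squared difference over the 6 arrays, the genes whose values were nearest to those of LEF1 were NMT2 (0.0134), an N-myristoyltransferase, PPP3CA (0.0134), a catalytic subunit of calcineurin, and NMRAL1 (0.0151). NMT2 had -0.38, -0.35 and -0.34 with MAP30, against 0.35, 0.36 and 0.38 in control. The log2 fold changes of the 3 were -0.72, -0.73 and -0.74, beside -0.74 for LEF1. This likeness follows from how the 3 were chosen and is no separate result.

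The rest of the pathway was followed through lists of 114 measured genes, of which 31 were higher, 39 lower and 44 did not pass. The 61.4% that passed are near the 57.5% of all genes, and the median log2 fold change was -0.04 beside -0.02. Over all genes 26.9% were higher and 30.6% lower, and the count of each list below is to be read against these shares. Of the genes named below, WNT7A, RSPO3, LRP5, FZD2, TRABD2A, DKK1, DAAM1, AXIN1 and SP5 were each measured by 1 probe set. Upstream of the members, the ligands and their secretion factors were 1 higher and 6 lower of 19, but 0 higher and 16 lower with hybridization-control centring and 5 higher and 4 lower with poly-A-control centring. WNT5B (-0.76), WNT7A (-0.50) and WNT5A (-0.44), which encode Wnt ligands, and WLS (-0.35), the carrier that brings Wnt proteins to the cell surface, were lower. WNT11 (0.21, with neither probe set passing) was higher, but stood at -0.0011 with hybridization-control centring, at 0.12 without MAP30 replicate 3, and lost its call without control replicate 1 (0.20), 2 (0.20) or 3 (0.23). Of the R-spondins, the partners of the LGR receptors, RSPO3 had 0.25, 0.09 and 0.72 with MAP30, against -0.09, -0.25 and -0.23 in control (0.54 ± 0.15 SE, limma adjusted p = 0.0159). MAP30 replicate 3 stood highest, and without it the value was 0.36. The other 3 R-spondins did not pass on the deposited scale. The 4 were 1 higher and 2 lower with hybridization-control centring, and 2 higher and 0 lower with poly-A-control centring.

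Of 16 receptor and co-receptor genes 10 fell and 3 rose, with a median of -0.31 beside -0.02 over all genes. Among the 10 Frizzled genes, whose products RNF43 and ZNRF3 remove, 6 were lower, 2 higher and 2 did not pass. LRP5 was -0.43, -0.45 and -0.71 with MAP30, against 0.46, 0.60 and 0.43 in control, which is 2.03-fold lower (limma adjusted p = 1.79e-05). FZD1 was 2.00-fold, FZD2 1.81-fold and PTK7, a Wnt co-receptor, 1.80-fold lower, each with all MAP30 arrays below all control arrays. LRP6 (0.38), with 2 probe sets higher and 1 lower, FZD8 (0.27) and FZD6 (0.17) were higher; with hybridization-control centring FZD8 (0.06) and FZD6 (-0.04) did not pass. The list was 1 higher and 13 lower with hybridization-control centring and 4 higher and 9 lower with poly-A-control centring.

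Secreted and membrane inhibitors were 1 higher and 2 lower of 15, but 0 higher and 13 lower with hybridization-control centring and 7 higher and 2 lower with poly-A-control centring. TRABD2A (-0.66), a membrane protease that cleaves Wnt proteins, and KREMEN1 (-0.63), a DKK receptor, were lower. DKK1 (0.28), a secreted inhibitor of LRP5 and LRP6 and a known Wnt target, was higher, although at 0.07 with hybridization-control centring it did not pass.

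**Figure D4:**
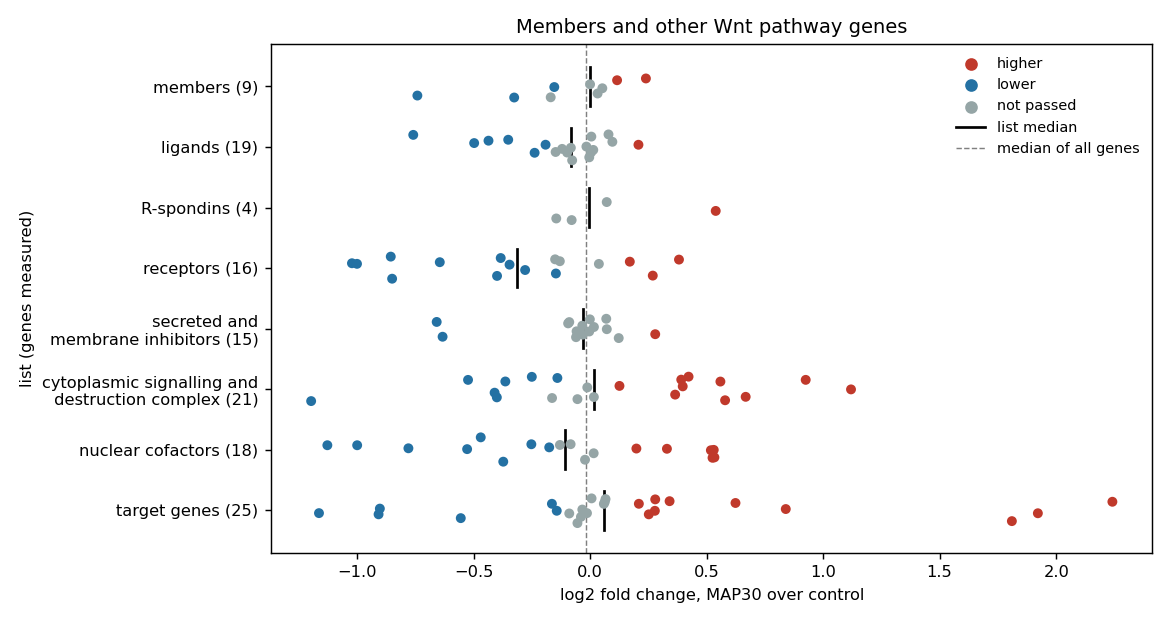
Log2 fold change of MAP30 over control (horizontal axis) for the 9 members and for 7 lists of other Wnt pathway genes; each point is a gene, coloured by its call on the deposited scale, the black bar is the median of the list and the dashed line the median of all genes. The receptor list has the lowest median, -0.31, with 10 genes lower and 3 higher (1 higher and 13 lower with hybridization-control centring, 4 higher and 9 lower with poly-A-control centring).

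In the cytoplasm, 10 of 21 signalling and destruction complex genes were higher and 7 lower (median log2 fold change 0.02). Of these, 12 were higher and 5 lower with poly-A-control centring, while 9 were higher and 11 lower (median -0.19) with hybridization-control centring. CSNK1G2 (-1.20), a casein kinase that acts on LRP6, was 2.29-fold lower. DAAM1 (1.12), which links Dishevelled to the actin cytoskeleton, APC (0.93) and TNKS (0.67), a tankyrase that promotes the loss of AXIN proteins, were higher, with 1 of the 4 probe sets of TNKS lower. The partners of AXIN2 in the destruction complex were looked up after values had been seen. GSK3B (0.40), CSNK1A1 (0.42) and BTRC (0.58) were higher, and AXIN1 (-0.25) was lower. BTRC, the substrate receptor of the ligase that marks beta-catenin, had 1 of its 4 probe sets lower. GSK3B had 1 of its 2 probe sets higher, and the other did not pass. CSNK1A1 had 8 probe sets higher and 2 lower of 11 and stood at -0.06, not passed, with _at or _a_at probe sets alone; AXIN1 stood at -0.09 and did not pass with poly-A-control centring.

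Of 18 nuclear cofactor genes 6 were higher and 8 lower (median log2 fold change -0.11). These counts were 4 and 12 with hybridization-control centring, and 8 and 7 (median 0.06) with poly-A-control centring. TLE5 (2.18-fold), the corepressor gene CTBP1 (2.00-fold) and CTNNBIP1 (1.72-fold), whose product keeps beta-catenin from TCF proteins, were lower. BCL9L (1.45-fold), a coactivator of beta-catenin, was higher. TCF7L1, the remaining TCF gene and also looked up afterwards, was -0.47 with 1 of its 3 probe sets lower, and -0.22 without passing when the median over probe sets was used.

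Genes known as Wnt targets gave no common direction: 10 of 25 were higher, 6 lower and 9 did not pass, with a median of 0.06. ID2 (4.73-fold), TNFRSF19 (3.79-fold) and JUN (3.51-fold) rose, and the cyclin D1 gene CCND1 (2.24-fold lower) fell. Several of these are also known to answer other signals. TNFRSF19, a receptor of the TNF family, had 0.85, 0.89 and 0.98 with MAP30, against -0.97, -1.12 and -0.96 in control. Targets that, like AXIN2, act back on the pathway were taken after values had been seen: NKD1 (-0.05), NOTUM (-0.03) and APCDD1 (-0.09) did not pass on the deposited scale, and SP5 (-0.55), a transcription factor gene induced by Wnt signals, was lower. NKD1, NOTUM and APCDD1 passed as lower with hybridization-control centring, at -0.26, -0.24 and -0.30. With poly-A-control centring the 3 stood above 0, at 0.11, 0.13 and 0.07, and did not pass. The whole target list was 5 higher and 12 lower with hybridization-control centring but 16 higher and 4 lower with poly-A-control centring.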

How the data were processed

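The data are Affymetrix expression arrays of 3 MAP30 and 3 control samples; per the labels' protocols, biotin-labelled RNA amplified from the 3' end was hybridised. The authors deposited log2 values (the base is assumed) in which each probe set is centred on its median, 0 to within 5.0e-07; RMA and MAS5 appear in the submitters' processing notes, with no role given. The platform annotation gave 44988 of 49395 probe sets exactly 1 gene. A gene is the mean of those probe sets. Linear models were fitted with limma 3.58.1 in R 4.3.3 (functions lmFit and eBayes, Benjamini-Hochberg adjustment) over all 18132 genes, and separately over the 49293 probe sets other than controls; tests are two-sided at 0.05. Intervals are 95%. The fits were tested on simulated data. No filter on dim probe sets was possible. Alternatives covered scaling, the variance model, the replicate number as a block, the summary of probe sets and leaving out each array.

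The members and lists were chosen with earlier results of these data known. Named genes are all members, up to 4 genes of each list that passed with the largest change, genes needed to account for small counts, and those said to be looked up afterwards; 120 listed Wnt genes gave 114 measured. The table has no genome build; coordinates are those of the RefSeq windows. Tables used Python 3.11.15, pandas 2.3.3, numpy 2.4.6, scipy 1.17.1 and matplotlib 3.10.9.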

Additional observations from a re-analysis of the deposited data

How the results depend on the processing

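Scaling moved the counts most. With hybridization-control centring 3087 genes were higher and 11558 lower, as were 8592 and 28498 probe sets, 0 and 7 member genes, 0 and 28 member probe sets, and 20 and 76 other Wnt genes. With poly-A-control centring 8906 genes, 21599 probe sets, 5 member genes, 11 member probe sets and 53 other Wnt genes were higher. The spiked controls themselves moved in opposite directions with MAP30, by 0.21 over 18 hybridization and -0.16 over 24 poly-A probe sets. The sign of a value that passed in at least 1 of the fits turned with hybridization-control centring for LGR5 (-0.18), AXIN2 (-0.16), TCF7L2 (-0.093), FZD6 (-0.038) and WNT11 (-0.0011), with poly-A-control centring for RNF43 (0.16) and CTNNB1 (0.010), and with _at or _a_at probe sets alone for LGR4 (0.064) and CSNK1A1 (-0.061), where 1 member gene, LEF1, was lower. Without any 1 array 0 to 2 member genes were higher, the calls at stake being LGR6 and TCF7L2. Over all alternatives 104 values of single member genes kept their side of the threshold, 10 lost a call, 6 gained one and 6 turned sign with a call involved; for the other named genes these counts were 502, 7, 3 and 3. Of the 104, 4 values of LGR5 and RNF43 that passed in neither fit changed sign, as did 5 of the 502, of APCDD1, NKD1 and NOTUM. Beyond these constructions the cause was not tested. Replicate numbers did not pair the arrays (correlations of same-numbered deviations -0.04, 0.07 and 0.01). With the replicate block 1 member gene was higher, since TCF7L2 (0.12) had a limma adjusted p of 0.0724, and ZNRF3 (-0.17) passed at 0.034. Centred values leave no signal over background, so what low signal limits could not be judged.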
